A study of Mus musculus with 12 samples.

Results

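The genes described here are 10 genes of the contractile apparatus that fibroblasts build when they turn into myofibroblasts: Acta2, Actg2, Tpm1, Tpm2, Cald1, Cnn1, Tagln, Myl9, Mylk and Actn1. They were taken by gene symbol from the annotation of the array, which gave 1 probe set with a single symbol for each, so all 10 of the 10 listed genes were measured, out of 19938 genes tested. Expression was measured on 12 arrays of cardiac colony-forming-unit fibroblasts (cCFU-F), which are SCA1 and PDGFRα positive, CD31 negative cells sorted from the hearts of C57BL/6 males aged 12 weeks and used as bulk cultures at passage P0. All groups shared this source, sort and passage, and the labels name no engineered allele. The 4 groups of 3 arrays were untreated cells, cells given the growth factor PDGF-AB at 50 ng/ml, and cells given AG1296 at 1 uM or at 10 uM. AG1296 is a small-molecule inhibitor of PDGF receptor tyrosine kinases that also acts on related kinases such as Kit. How long the cells were treated, and in which vehicle, is not given in the sources used here. The labels do not say whether the 3 arrays of a group came from separate cultures or animals, so p-values measure the spread between arrays, which may be technical.

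Myofibroblasts pull on their surroundings through stress fibres, bundles of actin filaments on which non-muscle myosin slides. Several of the proteins are those of smooth muscle, and many of their genes are known targets of serum response factor (SRF), which binds a promoter element called the CArG box together with myocardin-family cofactors. In heart fibroblasts their rise, above all that of smooth muscle α-actin encoded by Acta2, is the usual mark of activation after injury or on stiff culture plastic.

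The 250 bases before the transcription start were searched for the CArG box, a run of A and T between CC and GG, with at most 1 mismatch, using RefSeq promoters of build GRCm38.p6. The element is its own reverse complement, so a search of one strand covers both. Entries were found for 8 of the 10 genes, in 9 windows since Cald1 had 2; Tagln and Actg2 are named only. A match was present in 4 of these 8 genes, Acta2, Tpm1, Cald1 and Myl9, against 18.6% of all 32851 windows, and an exact match in 1, Myl9, against 1.47%. Genes are counted here and windows in the shares, and 1 of the 2 windows of Cald1 held no match. A match is a description of the letters and not a site of binding, and a window without one holds no such letters and nothing more. The windows of Acta2 (the marker gene of the group) and Myl9 (the exact match) are shown beside those of Cnn1 and Actn1, the genes whose expression changed, with matches in capitals. They lie at chr19:34255374-34255623 on the minus strand, chr2:156775214-156775463 on the plus strand, chr9:22099003-22099252 on the plus strand and chr12:80260364-80260613 on the minus strand. In Acta2 the matches stood 84 to 75 and 34 to 25 bases before the start, and in Myl9 the exact match stood 161 to 152 bases before it and the other 99 to 90.
Acta2: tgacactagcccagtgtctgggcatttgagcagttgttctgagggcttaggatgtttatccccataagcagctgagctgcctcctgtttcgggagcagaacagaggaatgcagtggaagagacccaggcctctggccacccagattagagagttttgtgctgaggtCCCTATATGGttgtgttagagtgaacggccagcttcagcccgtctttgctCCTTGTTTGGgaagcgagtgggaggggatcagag
Myl9: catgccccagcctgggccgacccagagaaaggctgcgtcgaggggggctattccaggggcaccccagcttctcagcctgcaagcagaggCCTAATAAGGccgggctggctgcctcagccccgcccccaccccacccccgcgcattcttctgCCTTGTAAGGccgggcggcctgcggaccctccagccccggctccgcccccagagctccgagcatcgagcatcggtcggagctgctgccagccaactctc
Cnn1: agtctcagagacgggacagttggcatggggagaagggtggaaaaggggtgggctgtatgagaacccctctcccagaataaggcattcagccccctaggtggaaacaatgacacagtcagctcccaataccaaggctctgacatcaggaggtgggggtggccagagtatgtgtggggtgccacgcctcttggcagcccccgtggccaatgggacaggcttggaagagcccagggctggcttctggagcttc
Actn1: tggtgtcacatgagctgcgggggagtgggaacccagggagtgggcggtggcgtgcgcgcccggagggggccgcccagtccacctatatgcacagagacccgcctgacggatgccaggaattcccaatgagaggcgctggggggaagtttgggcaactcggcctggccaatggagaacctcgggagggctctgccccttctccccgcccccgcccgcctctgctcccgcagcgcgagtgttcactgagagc

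Values below are log2 expression per probe set as the authors deposited them, means are given with their SD over n = 3 arrays, and differences are log2 differences of group means with the standard error (SE) of the fit. A gene is said to have risen or fallen only at a Benjamini-Hochberg adjusted p under 0.05 over all 19938 genes in limma's moderated test. Because probe sets differ in how brightly they hybridise, the level of one gene is not set against that of another. Array medians lay between 4.02 and 4.13, and pairs of arrays correlated at 0.992 to 0.996 within a group and 0.987 to 0.995 between groups. The 8 fibroblast markers lay above the array median on all 12 arrays, while 4 of 6 endothelial markers (Pecam1 and Cdh5 among them), 3 of 6 leukocyte markers (with Ptprc) and 5 of 9 cardiomyocyte markers (with Myh6) lay below it on all 12. One marker of each of these 3 lists lay above it on all 12, Egfl7, Lyz2 and Tnnt2, and the others on some arrays. Pdgfra, the receptor gene used for the sort, fell by 0.91 (SE 0.09, adjusted p = 3.8e-05) with AG1296 at 1 uM. At 10 uM it fell by 0.40 (adjusted p = 0.0361, up to 0.152 when 1 array was left out). With PDGF-AB it was at 0.13 above untreated (adjusted p = 0.720).

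Among the 10 contractile genes, Actn1 and Cnn1 were the ones that changed. Actn1, which encodes the actin-bundling protein α-actinin 1, rose to 1.41-fold with AG1296 at 1 uM and to 1.38-fold at 10 uM, and did not differ detectably from untreated with PDGF-AB. Cnn1, which encodes the smooth muscle protein calponin 1, fell by 38.5% with AG1296 at 1 uM. In limma's F test over the 4 groups, these 2 of 10 genes were called, with adjusted p = 0.00114 for Actn1 and 0.00981 for Cnn1, where 5% of all genes were called. Without replicate 1 of AG1296 1 uM the F test of Cnn1 gave adjusted p = 0.0504 and that of Actn1 0.00562. The other 8 genes, Acta2 among them, had adjusted p from 0.0948 to 0.722 in the F test. These are bulk cultures, so fewer cells that express a gene and less RNA per cell cannot be told apart.

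**Figure D1:**
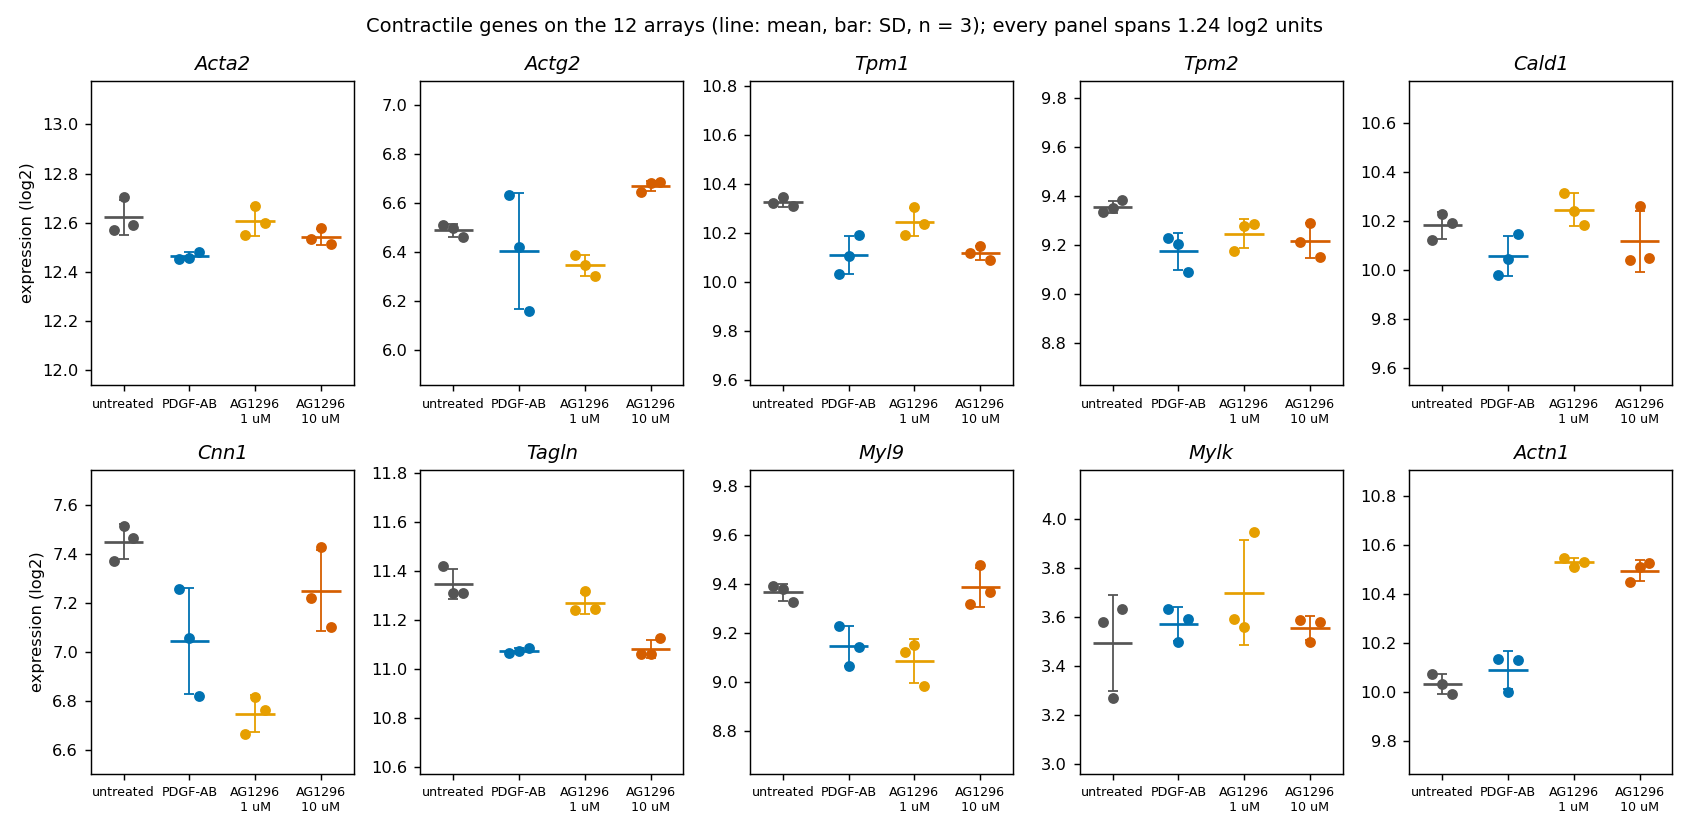
Log2 expression of each of the 10 contractile genes on each of the 12 arrays, by group, with 1 point per array, a horizontal line at the group mean and a bar of 1 SD to each side (n = 3); all panels span the same height in log2 units around their own centre. The 6 AG1296 arrays of Actn1 lie between 10.45 and 10.55, above the 6 others at 9.99 to 10.14, and the 3 arrays of Cnn1 at 1 uM lie between 6.67 and 6.82, below all the others.

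Acta2 encodes the actin that myofibroblasts add to their stress fibres. Its values were 12.57, 12.70 and 12.59 in untreated cells, 12.45, 12.46 and 12.48 with PDGF-AB, 12.55, 12.67 and 12.60 with AG1296 at 1 uM and 12.53, 12.58 and 12.51 at 10 uM. The 12 arrays thus spanned 0.25, and the PDGF-AB arrays were lower than all 9 others. The PDGF-AB mean was 0.16 below untreated (difference -0.16, SE 0.08, 95% interval -0.33 to 0.0094, adjusted p = 0.606). The differences with AG1296 were -0.016 (95% interval -0.18 to 0.15, adjusted p = 0.973) at 1 uM and -0.080 (95% interval -0.25 to 0.088, adjusted p = 0.805) at 10 uM. No change of Acta2 was detected in any treated group, and the interval with PDGF-AB reaches down to -0.33.

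Actg2 encodes the γ-actin of visceral smooth muscle. It was at 6.51, 6.50 and 6.46 in untreated cells, 6.63, 6.42 and 6.16 with PDGF-AB, 6.39, 6.35 and 6.30 at 1 uM and 6.65, 6.68 and 6.68 at 10 uM. The 3 arrays at 10 uM lay above all the others, those at 1 uM lay below the untreated ones, and the PDGF-AB arrays overlapped both untreated and 1 uM. The gap between the doses was 0.33 (SE 0.10, 95% interval 0.10 to 0.55, adjusted p = 0.308), and no comparison of Actg2 passed the test. Its values with PDGF-AB had an SD of 0.24, the widest of any group among the 10 contractile genes.

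Tropomyosins lie along the actin filament and set which myosins and binding proteins reach it. Tpm1 was at 10.32, 10.34 and 10.31 in untreated cells, 10.03, 10.10 and 10.19 with PDGF-AB, 10.19, 10.31 and 10.23 at 1 uM and 10.12, 10.15 and 10.09 at 10 uM. All 9 treated arrays were below the lowest untreated one, though the highest 1 uM array (10.3064) nearly tied with it (10.3073). The difference was -0.22 (SE 0.08, adjusted p = 0.427) with PDGF-AB, -0.080 (adjusted p = 0.770) at 1 uM and -0.21 (SE 0.08, adjusted p = 0.299) at 10 uM. Tpm2 showed a like arrangement, with 9.33, 9.35 and 9.38 untreated, 9.23, 9.20 and 9.09 with PDGF-AB, 9.18, 9.28 and 9.29 at 1 uM and 9.21, 9.29 and 9.15 at 10 uM. Its differences from untreated were -0.18, -0.11 and -0.14 in that order, with adjusted p of 0.561, 0.651 and 0.586. Neither tropomyosin gene passed the test against untreated, although all untreated arrays of both lay above all treated ones.

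Caldesmon, calponin 1 and transgelin bind actin filaments and, as known from smooth muscle, restrain or stabilise their contact with myosin. Cald1 was at 10.12, 10.23 and 10.19 in untreated cells, 9.98, 10.05 and 10.15 with PDGF-AB, 10.32, 10.24 and 10.18 at 1 uM and 10.04, 10.26 and 10.05 at 10 uM. Each treated group overlapped the untreated one, and the adjusted p lay between 0.746 and 0.875 against untreated.

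Cnn1 had the widest range of the 10 genes over the 12 arrays, 0.85. It was at 7.37, 7.52 and 7.47 in untreated cells, 7.26, 7.06 and 6.82 with PDGF-AB, 6.67, 6.82 and 6.77 with AG1296 at 1 uM and 7.22, 7.43 and 7.10 at 10 uM. The 1 uM arrays were the lowest, the PDGF-AB arrays lay below untreated with a wide spread (7.05 ± 0.22, SD), and the 10 uM arrays overlapped untreated. At 1 uM Cnn1 fell by 0.70 (SE 0.12, 95% interval -0.95 to -0.45, adjusted p = 0.00337). With PDGF-AB the difference was -0.41 (SE 0.12, 95% interval -0.66 to -0.15), with an unadjusted p of 0.00393 and an adjusted p of 0.274. At 10 uM it was -0.20 (adjusted p = 0.583). The direct comparison of the doses gave 0.50 higher at 10 uM than at 1 uM (SE 0.12, adjusted p = 0.118), so the doses were not called apart for Cnn1. With moderation with an intensity trend and robust variances, the same comparison gave adjusted p = 0.0113, and with dim genes left out 0.0339.

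Tagln, the gene of transgelin (SM22α), was at 11.42, 11.31 and 11.31 in untreated cells, 11.06, 11.07 and 11.08 with PDGF-AB, 11.24, 11.32 and 11.24 at 1 uM and 11.06, 11.06 and 11.13 at 10 uM. The PDGF-AB and 10 uM arrays all lay below the untreated and 1 uM arrays, which overlapped each other. The difference from untreated was -0.27 with PDGF-AB (SE 0.08, 95% interval -0.44 to -0.11, adjusted p = 0.244) and -0.26 at 10 uM (SE 0.08, 95% interval -0.43 to -0.10, adjusted p = 0.123). At 1 uM it was -0.079 (adjusted p = 0.766). Under the trend and robust moderation these calls turned, with adjusted p = 0.00327 with PDGF-AB and 0.00122 at 10 uM, and with dim genes left out the 10 uM value was 0.0253.

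Myl9 encodes the regulatory light chain whose phosphorylation switches the myosin on. It was at 9.39, 9.38 and 9.33 in untreated cells, 9.23, 9.07 and 9.15 with PDGF-AB, 9.12, 9.15 and 8.99 at 1 uM and 9.32, 9.48 and 9.37 at 10 uM. The PDGF-AB and 1 uM arrays lay below all untreated arrays, and the 10 uM arrays overlapped the untreated ones. The differences were -0.22 with PDGF-AB (SE 0.09, adjusted p = 0.476), -0.28 at 1 uM (SE 0.09, adjusted p = 0.115) and 0.021 at 10 uM (adjusted p = 0.966). The call at 1 uM turned under the trend and robust moderation (adjusted p = 0.00984) and with dim genes left out (0.0304). Mylk, the gene of the kinase that phosphorylates this light chain, was below the array median on all 12 arrays. Its values ran from 3.27 to 3.63 untreated, 3.50 to 3.63 with PDGF-AB, 3.56 to 3.95 at 1 uM and 3.50 to 3.59 at 10 uM, with every pair of groups overlapping and adjusted p from 0.526 to 0.972 over the 6 comparisons.

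Actn1, whose product ties actin filaments together in stress fibres and at focal adhesions, ran the other way. It was at 10.07, 10.03 and 9.99 in untreated cells, 10.14, 10.00 and 10.13 with PDGF-AB, 10.55, 10.51 and 10.53 at 1 uM and 10.45, 10.51 and 10.53 at 10 uM. The AG1296 arrays formed a high block at both doses, and the PDGF-AB arrays overlapped the untreated ones. Actn1 rose by 0.50 at 1 uM (SE 0.08, 95% interval 0.33 to 0.66, adjusted p = 0.00219) and by 0.46 at 10 uM (SE 0.08, 95% interval 0.29 to 0.63, adjusted p = 0.00611). With PDGF-AB the difference was 0.056 (95% interval -0.11 to 0.22, adjusted p = 0.898). The doses differed by -0.034 (95% interval -0.20 to 0.13, adjusted p = 0.940). The calls of Actn1 and Cnn1 against untreated were kept under each of the 21 alternatives tried, including leaving out each array in turn.

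Set side by side as counts, PDGF-AB against untreated gave 0 of 10 genes called in limma, where 0.331% of all genes were called, 0.12% higher and 0.211% lower. An unadjusted p under 0.05 was reached by 5 of 10 genes against 8.55% of all genes, and the trend and robust moderation called 1, Tagln. Means were lower with PDGF-AB in 8 of 10 genes, against 47.1% of all genes, and in 6 genes (Acta2, Tpm1, Tpm2, Cnn1, Tagln and Myl9) every PDGF-AB array was below every untreated one, against 6.61% of all genes in that direction, while in 0 every array was above, against 6.74%. The median difference over the 10 genes was -0.17, against 0.01 over all genes. The count of lower means was 9 without untreated replicate 2 and 7 without PDGF-AB replicate 3. Differences of this size, 0.16 to 0.41 in those 6 genes, did not pass the test across all genes. The shares of all genes given here and elsewhere include dim genes, whereas the contractile genes other than Mylk lay above the median of every array. With dim genes left out, 133 genes were called with PDGF-AB, from 66, out of fewer tested. The share of genes called with PDGF-AB was thus higher among brighter genes in that refit. The other shares were not computed among brighter genes, and the contractile genes were not set against genes of like brightness.

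The mean was lower in 7 of 10 genes at 1 uM and in 6 at 10 uM against untreated, where 53.4% and 47.8% of all genes were lower. AG1296 at 1 uM against untreated gave 2 of 10 genes called, Actn1 higher and Cnn1 lower, where 3.2% of all genes were called, 1.88% higher and 1.33% lower. The median difference was -0.08, against -0.01 over all genes. Every 1 uM array lay below every untreated one in 5 genes, against 10.2% of all genes, and above in 1, against 10.1%. AG1296 at 10 uM against untreated gave 1 of 10 genes called, Actn1, where 1.88% of all genes were called, 1.21% higher and 0.672% lower. The arrays lay wholly below untreated in 3 genes (Tpm1, Tpm2 and Tagln), against 8.19% of all genes, and wholly above in 2 (Actg2 and Actn1), against 9.78%. At each dose 3 of 10 genes reached an unadjusted p under 0.05 in limma, against 13.1% of all genes at 1 uM and 11.4% at 10 uM. The 3 comparisons with untreated cells share the same 3 untreated arrays.

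**Figure D2:**
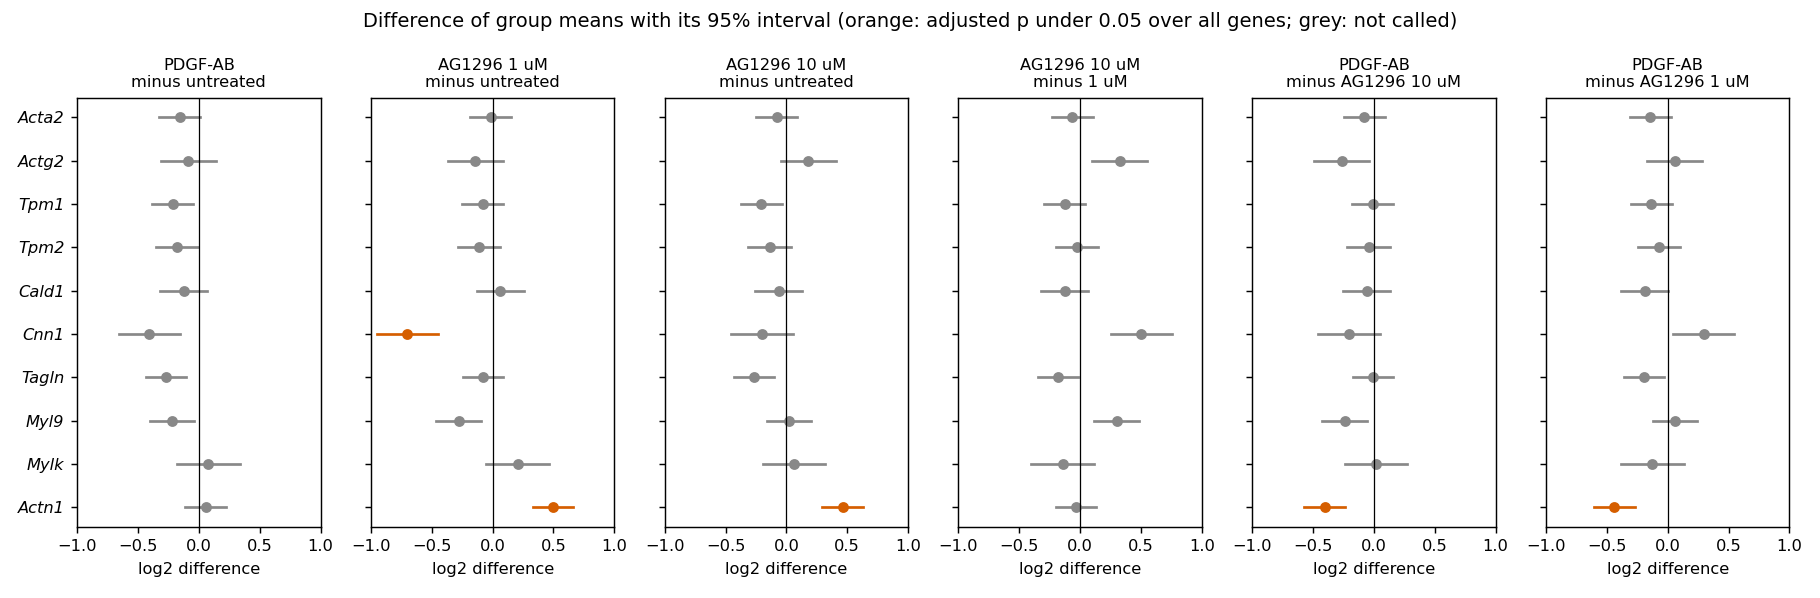
Log2 difference of group means for each of the 10 contractile genes in 6 comparisons, 1 per panel, drawn as points with 95% intervals from the fit (n = 3 arrays per group); orange marks an adjusted p under 0.05 and grey the rest. Against untreated, Actn1 is orange at both doses of AG1296 and Cnn1 at 1 uM, Actn1 is orange again where PDGF-AB is set against AG1296, and all intervals lie within 1 log2 unit of 0.

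The 2 doses of AG1296 were compared directly for all 10 genes, with p-values adjusted over all genes. In limma 0 of 10 were called, where 0.376% of all genes were called, 0.196% higher and 0.181% lower at 10 uM. An unadjusted p under 0.05 was reached by 4 of 10, against 9.07% of all genes, and the trend and robust moderation called 2, Cnn1 (0.0113) and Myl9 (adjusted p = 0.0189). Actg2, Cnn1 and Myl9 were higher at 10 uM without overlap, against 8.88% of all genes, by 0.33, 0.50 and 0.30. The mean was lower at 10 uM in 7 of 10 genes, against 44.9% of all genes. Tpm1 and Tagln were lower at 10 uM without overlap, against 7.03% of all genes, with differences of -0.13 and -0.19.

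PDGF-AB against AG1296 sets the ligand against the inhibitor. Actn1 was the 1 gene of 10 called at each dose, lower with PDGF-AB by a difference of -0.41 (SE 0.08, adjusted p = 0.00855) against 10 uM and -0.44 (SE 0.08, adjusted p = 0.00336) against 1 uM. Of all genes, 3.42% were called against 10 uM, 1.42% higher and 2% lower with PDGF-AB. Against 1 uM 5.21% were called, 2.28% higher and 2.93% lower. With only the 6 arrays compared, the 10 uM call of Actn1 was lost (adjusted p = 0.0749). Against each dose 3 of 10 genes reached an unadjusted p under 0.05 in limma, where 14.1% of all genes did for 10 uM and 16.9% for 1 uM. Means were lower with PDGF-AB than at 10 uM in 9 of 10 genes, against 49.2% of all genes, with a median difference of -0.07, and in 7 of 10 against 1 uM, where 44% of all genes were lower. In 4 genes (Acta2, Actg2, Myl9 and Actn1) every PDGF-AB array lay below every 10 uM array, against 9.59% of all genes, and in 0 above, against 8.47%. Against 1 uM, 5 genes (Acta2, Tpm1, Cald1, Tagln and Actn1) lay wholly lower with PDGF-AB, against 10.4% of all genes, and 1, Cnn1, wholly higher, against 11.4%. Of these 10 differences, those of Actn1 passed the test. That of Cnn1 was a near tie at its edge, with the lowest PDGF-AB array at 6.823 and the highest 1 uM array at 6.816.

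The order of the group means fell into a few patterns. Acta2, Tpm1, Tpm2 and Tagln were each highest untreated, followed by 1 uM, 10 uM and PDGF-AB. Actg2 and Myl9 were both highest at 10 uM, followed by untreated, PDGF-AB and 1 uM. Cnn1 was highest untreated, followed by 10 uM, PDGF-AB and 1 uM, and Cald1 was highest at 1 uM and lowest with PDGF-AB. Actn1 ran from 1 uM through 10 uM and PDGF-AB to untreated, and the step from 10 uM to PDGF-AB was the one pair of neighbours in any of these orders that passed the test. All other neighbours were not called apart, so the orders describe these arrays only.

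Non-member genes were ranked by the likeness of their log2 values to those of Acta2 over the 12 arrays. Predicted genes, olfactory and vomeronasal receptor genes, microRNAs and small RNAs were left out of this ranking. Highest among the rest were Gyg (Pearson r = 0.925), Trim23 (0.910) and Ivns1abp (0.909), then Pdpk1 (0.896), Supt20 (0.896) and Triap1 (0.893). They were picked as the highest values of all genes ranked. The 12 arrays share their groups, and Acta2 spans only 0.25, so these values describe likeness on these arrays.

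Close relatives of the contractile genes share their actin-binding or filament-forming roles. Of 13 paralogs, 12 were measured (all but Actg1). Of all genes, 0.331% were called with PDGF-AB, 3.2% at 1 uM and 1.88% at 10 uM against untreated. These shares also stand beside the counts of the lists that follow. No paralog was called with PDGF-AB and 1 was lower at each dose of AG1296. It was Tagln2, the relative of Tagln found in many cell types, which fell by 0.38 at 1 uM (adjusted p = 0.0269) and by 0.41 at 10 uM (adjusted p = 0.0232). These calls were lost when any 1 untreated array was left out, with adjusted p up to 0.0972 and 0.10 over all arrays left out. Tagln2 was higher with PDGF-AB than at 10 uM by 0.58 (adjusted p = 0.0012) and than at 1 uM by 0.55 (adjusted p = 0.0013). Both of these calls were kept in all 21 alternatives. The cytoplasmic actin gene Actb differed from untreated by 0.013 with PDGF-AB, and the striated muscle actin genes Acta1 and Actc1 by -0.21 and 0.23, none of them called. Tpm3 differed from untreated by -0.022, -0.079 and -0.026 with PDGF-AB, 1 uM and 10 uM, and Tpm4 by -0.0047, -0.077 and -0.060. The Tpm3 values are those of its brightest probe set. Its dimmer probe sets ran from -0.0040 to 0.20 with PDGF-AB, 0.039 to 0.056 at 1 uM and -0.14 to 0.15 at 10 uM. The median paralog difference was -0.013, 0.021 and -0.030 for PDGF-AB, 1 uM and 10 uM.

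Other smooth-muscle-type contractile and cytoskeletal genes were measured for 17 of 18. With PDGF-AB 1 was lower, Sorbs2 at -0.61 (adjusted p = 0.0227, lost without any 1 untreated array or PDGF-AB replicate 1 or 3, and 0.131 with only the 6 arrays compared). At 1 uM 1 was higher, Csrp2 at 0.68, and 4 were lower, among them Kcnmb1 at -1.30, a subunit of the potassium channel of smooth muscle, and Fhl1 at -0.64. The other 2 were Ppp1r14a at -0.51, whose product inhibits myosin phosphatase (adjusted p = 0.0726 without untreated replicate 1 and 0.063 without replicate 2 of AG1296 1 uM), and Csrp1 at -0.43. At 10 uM Myh11, the smooth muscle myosin heavy chain gene, rose by 0.54 (adjusted p = 0.0398), Smtn rose by 0.43 (0.0141), and Fhl1 fell by 0.32 (0.0408). On leaving out single arrays these 3 reached adjusted p of 0.187, 0.0798 and 0.161. Between the doses, 15 of 17 had a higher mean at 10 uM, with a median of 0.27 and none called. Of all genes, 44.9% had a lower mean at 10 uM, and their median difference was 0.018.

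Of 20 stress fibre and focal adhesion genes, 19 were measured, and none was called with PDGF-AB. Tln1, the gene of talin, which links integrins to actin, rose by 0.71 at 1 uM and by 0.87 at 10 uM (adjusted p = 0.000733 and 0.000247). Tes, which encodes the focal adhesion protein testin, fell by 1.21 and 0.84 (adjusted p = 1.1e-06 and 6.5e-05). In all 2 genes were higher and 3 lower at each dose, and the medians were -0.064 at 1 uM and -0.027 at 10 uM, close to 0. At both doses the other lower genes were Lpp (-0.53 and -0.58) and Pdlim5 (-0.40 and -0.42), and the other higher gene was Flnc at 1 uM (0.35) and Synpo at 10 uM (0.52). Lpp, Synpo and the 1 uM call of Pdlim5 lost their calls on leaving out single arrays, with adjusted p up to 0.171.

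SRF itself and its cofactors and modulators, 16 of 16 measured, gave 0 called genes in each of the 6 comparisons. Of all genes, 0.331% to 5.21% were called in them, so 0 of 16 does not show that these genes were unchanged. Srf differed from untreated by 0.076, 0.0090 and -0.16 with PDGF-AB, 1 uM and 10 uM, and the gene of the cofactor myocardin, Myocd, was below the array median on all 12 arrays. Matrix genes of activated fibroblasts, 15 of 16 measured, serve the other known side of fibroblast activation, the laying down of collagen and its partners. None was called with PDGF-AB, 7 were higher and 1 lower at 1 uM, and 6 were higher and 1 lower at 10 uM. Lox, a collagen cross-linking enzyme, rose by 0.76 at 1 uM, as did Itga11 by 1.06 and Cthrc1 by 0.70. At 10 uM Postn, the gene of the matricellular protein periostin, rose by 0.68 and the collagen genes Col3a1 and Col5a1 by 0.54 and 0.48. The lower gene was Tnc at 1 uM (-0.32) and Thbs1 at 10 uM (-0.32). The medians were 0.31 and 0.32 against -0.08 and -0.07 for the contractile genes; the difference between the lists was not tested.

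**Figure D3:**
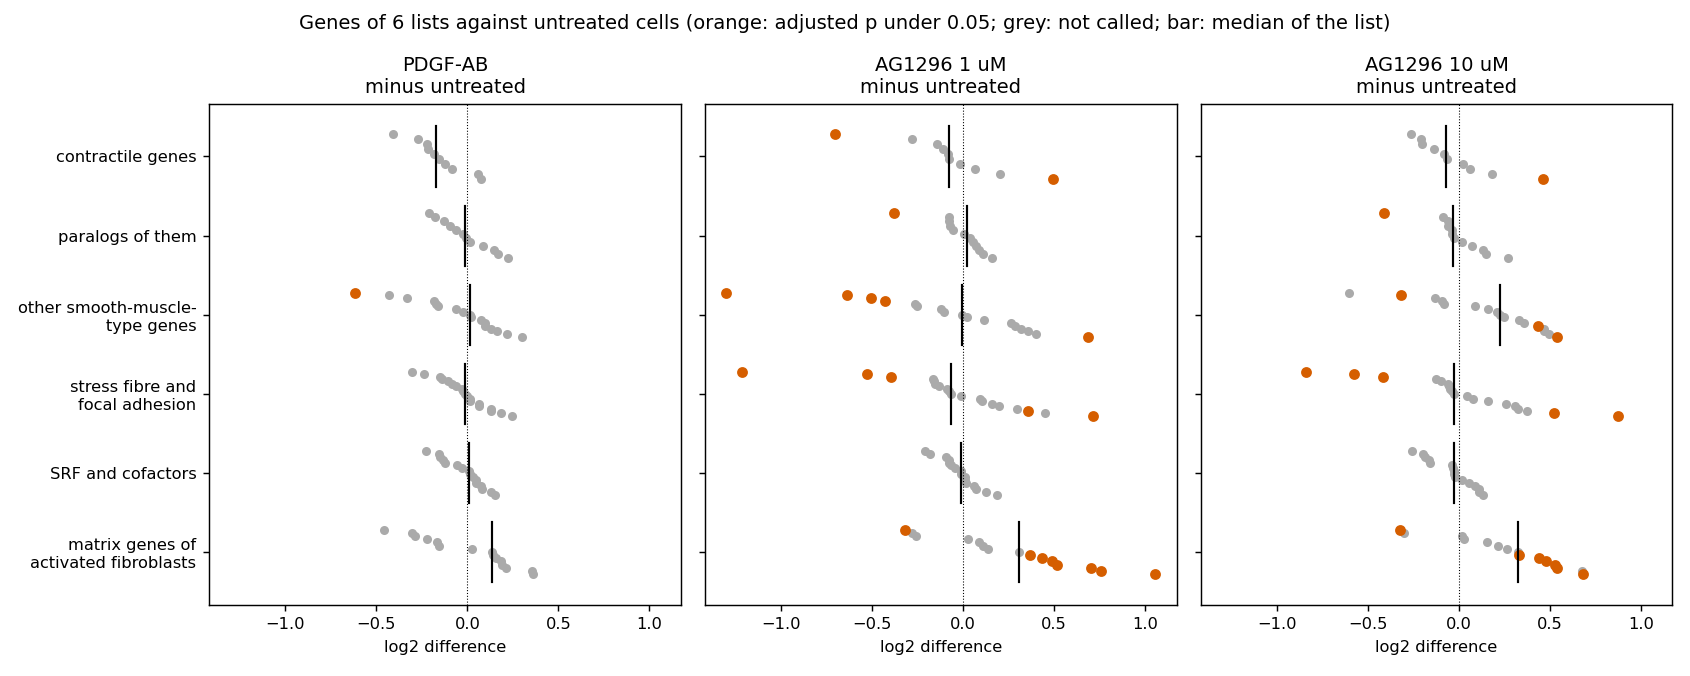
Log2 difference from untreated of each measured gene in the contractile group and the related lists, by treatment, with 1 point per gene (orange at an adjusted p under 0.05, grey otherwise) and a bar at the median of the list. The contractile genes centre slightly below 0 in each treatment, at -0.17, -0.08 and -0.07, and the matrix genes at 0.13, 0.31 and 0.32.

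Smooth muscle cells and pericytes express several of the contractile genes, so their other markers are given beside them. The 8 markers summed to 33.2 to 34.0 on the untreated arrays, 34.9 to 35.2 with PDGF-AB, 32.1 to 33.1 at 1 uM and 34.5 to 35.0 at 10 uM. Of the 8, the pericyte markers Rgs5, Kcnj8 and Abcc9 lay below the array median on all 12 arrays, Notch3 and Mcam lay above it on all 12, and the other 3 varied. The PDGF-AB and 10 uM ranges overlapped, and the 1 uM range was the lowest, as was Cnn1. Without Mcam the other 7 summed to 25.9 to 26.7 untreated, 27.7 to 28.1 with PDGF-AB, 26.2 to 27.2 at 1 uM and 27.7 to 28.3 at 10 uM, so that 1 uM no longer lay below untreated. Mcam, one of these 8, fell by 1.42 at 1 uM (adjusted p = 1.1e-06) and by 0.59 at 10 uM (adjusted p = 0.00381). Against untreated, 4 of the 8 had a higher mean and 4 a lower one at 1 uM, with only Mcam called. At 10 uM 6 were higher and 2 lower, with Myh11 called higher and Mcam lower. With PDGF-AB 5 were higher and 3 lower, with none called. The F test called 4 of the 8, where 5% of all genes were called. The part of such cells in the differences was not tested.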

How the data were processed

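Per the labels' protocols, total RNA with an integrity number above the submitters' limit was labelled with biotin and hybridised to 1-colour Affymetrix arrays. The authors deposited log2 expression values per probe set, made with RMA (background subtraction, normalization across arrays, summary of probes) per the submitters' processing notes, which also name limma without a version. The table does not state the log base, which was taken from its range. They were used as deposited, with no filter on dim probe sets. Of 28853 probe sets, 21789 (75.5%) had 1 symbol; 5443 had none and 1621 had several, and were left out. Where a gene had more than 1 probe set (999 genes), that with the highest mean stood for it, which gave 19938 genes.

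All 12 arrays entered 1 fit with limma 3.58.1 in R 4.3.3, with a mean per group and empirical Bayes moderation (8 residual degrees of freedom and 5.35 prior ones). The 6 comparisons and the F test were two-sided, with Benjamini-Hochberg adjustment over all genes and calls at an adjusted p under 0.05. With 3 arrays a group, precision is limited by their number. The fit was tested on simulated data.

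The contractile genes and the related lists were chosen with earlier results of these data known. Named were all 10 contractile genes, and from each list at most 4 called genes with the largest difference per comparison. Also named were 6 paralogs, Pdgfra, and the 6 genes most like Acta2 in the ranking described above. Csrp1, Flnc, Tnc, Thbs1, Mcam and Pdlim5 at 10 uM were added with their values in view, without refits under the alternatives. Alternatives were each array left out, only the arrays compared, other normalizations and moderation, dim genes left out, the mean of probe sets and the replicate number as a block. One further list of genes is not reported here.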

Additional observations from a re-analysis of the deposited data

How the results depend on the processing

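Results were refitted under up to 21 alternatives; Mylk and Myh11, below the limit, have no value with dim genes left out, and the F test none with only the arrays compared. Of the 60 differences of the 10 contractile genes, 51 kept their call or lack of one in every alternative; of the 5 called, 4 were kept in every alternative and 0 changed direction. Of 55 calls refitted for genes of the related lists, 31 were kept in every alternative.

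With moderation with an intensity trend and robust variances (both changed together), genes called rose to 160 for PDGF-AB, 1010 for AG1296 1 uM and 686 for 10 uM against untreated, from 66, 639 and 375, to 209 from 75 between the doses, and to 1077 from 682 for PDGF-AB against 10 uM. Contractile genes called were then 1 (PDGF-AB), 3 (10 uM), 2 (between doses), 2 and 2 (PDGF-AB against 10 uM and 1 uM) and 5 in the F test. Their added calls were Tagln with PDGF-AB (adjusted p = 0.00327), at 10 uM (0.00122) and between PDGF-AB and 1 uM (0.0104), Tpm1 at 10 uM (0.0325), Cnn1 (0.0113) and Myl9 (0.0189) between doses, and Myl9 at 1 uM (0.00984) and between PDGF-AB and 10 uM (0.0277).

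With genes of below-median mean left out, which tests fewer genes, 133, 989, 660, 175 and 1032 genes were called in the same order, and 2 contractile genes at 10 uM, 1 between doses and 4 in the F test. With only the 6 arrays compared, and so fewer degrees of freedom, 7 genes were called with PDGF-AB, 218 at 10 uM, 14 between doses, 391 for PDGF-AB against 10 uM and 691, from 1039, against 1 uM, with 0 contractile genes for PDGF-AB against 10 uM.

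Leaving out 1 array in turn gave 21 to 62 genes for PDGF-AB, 349 to 718 for 1 uM, 219 to 434 for 10 uM and 16 to 82 between doses, and 1 to 2 contractile genes in the F test, with the lowest count without untreated replicate 1, AG1296 1 uM replicate 1, AG1296 10 uM replicate 2, AG1296 1 uM replicate 2 and AG1296 1 uM replicate 1 in that order. The contractile genes called in the 6 comparisons stayed at their counts. Quantile normalization, median centring, the mean of probe sets and all probe sets moved no count of calls by over 1.5 times.

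Replicate numbers are shared by the groups but were not taken as pairs, since not every same-numbered pair correlated above 0.1. Deviations of same-numbered arrays correlated at -0.03 to 0.30 (median 0.11), with 9 of 18 pairs over 0.1. An array correlated best with its own number in 23 of 36 cases. Of 36 pairs with different numbers, 1 was over 0.1 (median -0.03), so same-numbered arrays were more alike by the median. With the number as a fixed block, 61 genes were called for PDGF-AB, 666 for 1 uM and 391 for 10 uM; with a random block (consensus correlation 0.0860) 92, 779 and 442. Neither block changed a call of a contractile gene. With the fixed block Pdgfra and Fhl1 at 10 uM were no longer called (adjusted p = 0.0515 for both).

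The causes of the other changes were not tested. Mylk and Myocd lay below the array median on all arrays, and Myh11 on the untreated and PDGF-AB arrays. There, signal over background limits what can be seen.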
